A study of Rattus norvegicus with 16 samples.

Results

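Genes of regulated exocytosis were followed through adrenal medullary hyperplasia and pheochromocytoma of mutant rats. They comprise the vesicle SNAREs (Vamp), the syntaxins (Stx), Snap23, Snap25 and Snap29, the syntaxin-binding proteins (Stxbp), the synaptotagmins (Syt), the complexins (Cplx), the Rims proteins, Rab3a to Rab3d, Rph3a and Unc13a. Genes were chosen by symbol, with no measured value: the rule takes every probe set whose single symbol in the array annotation belongs to those families. This gave 54 genes of the 14217 on the array that have a probe set with a single symbol, and 79 probe sets. Where a gene had several probe sets, the brightest over the 16 arrays stands for it: 34 members have 1 probe set and 20 have several.

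Total RNA was measured on 16 expression arrays, 1 per sample, and all values below are log2 signals as deposited. All rats were of the strain Sprague–Dawley white eye/Wistar–Kyoto. The mutant rats carried the genotype p27Kip1 (Cdknb1) mutant, a defect in a cyclin-dependent kinase inhibitor, and the series title names the resulting multiple endocrine neoplasia MENX. The 8 hyperplasia arrays held adrenal medullary hyperplasia of mutants aged 2 months, labelled as 4 females and 4 males. The 4 pheochromocytoma arrays held adrenal pheochromocytoma of mutants, 3 of them females of 8 months and 1 a male of 9 months. The wild-type arrays held pooled adrenal medulla. Young wild type 1, labelled male, pooled 2 animals, and young wild type 2, labelled female, pooled 3 animals, all of 2 months. Older wild type 1, labelled female, pooled 2 animals of 10 months. Older wild type 2, labelled male, pooled 2 animals of 12 and 17 months. Because pooling averages animals, the wild-type arrays understate how much single rats vary, and p-values that rest on 2 pools may be too small.

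Chromaffin cells of the adrenal medulla store catecholamines and peptides in dense-core vesicles and release them when calcium enters. A vesicle SNARE, Vamp2, zips together with Snap25 and Stx1a of the plasma membrane, and the energy of that zipping fuses both membranes. Synaptotagmins sense the calcium, complexins hold the SNARE complex ready, and Rab3 with its Rims and rabphilin partners docks and primes the vesicle.

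Arrays differed in ways that touch these results. Within a group the arrays correlated at 0.981 to 0.996 over all probe sets, and between groups at 0.94 to 0.987. Chromaffin markers were bright throughout: Th, the rate-limiting enzyme of catecholamine synthesis, lay between 13.81 and 14.28. The mean of 10 adrenal cortex markers lay at 12.31 to 12.41 in young wild type and 11.06 to 11.91 in hyperplasia, and at 12.73 to 13.04 in older wild type and 10.94 to 12.39 in pheochromocytoma. It differed by -0.795 (exact permutation p = 0.022, the smallest of 45 splits; 0.171 after adjustment over 18 tests) and by -1.178 (exact permutation p = 0.133; 0.240 adjusted), and 3 and 8 of the 10 markers fell. No cortex marker fell below 6.94 on any array, so cortex RNA was present throughout; Nr5a1, the master regulator of steroid-producing cells, averaged 7.81 in hyperplasia. The gap between the 3′ and 5′ probe sets of the hexokinase control transcript, a measure of RNA or labelling quality, lay at 1.06 to 1.64 on the young arrays and 2.16 to 3.30 on the older ones. Xist, the transcript of the inactive X chromosome, went against the labelled sex on 6 of the 16 arrays, namely 4 of the 8 hyperplasia arrays and both young wild-type pools, so sex was left out of the fit.

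**Figure D1:**
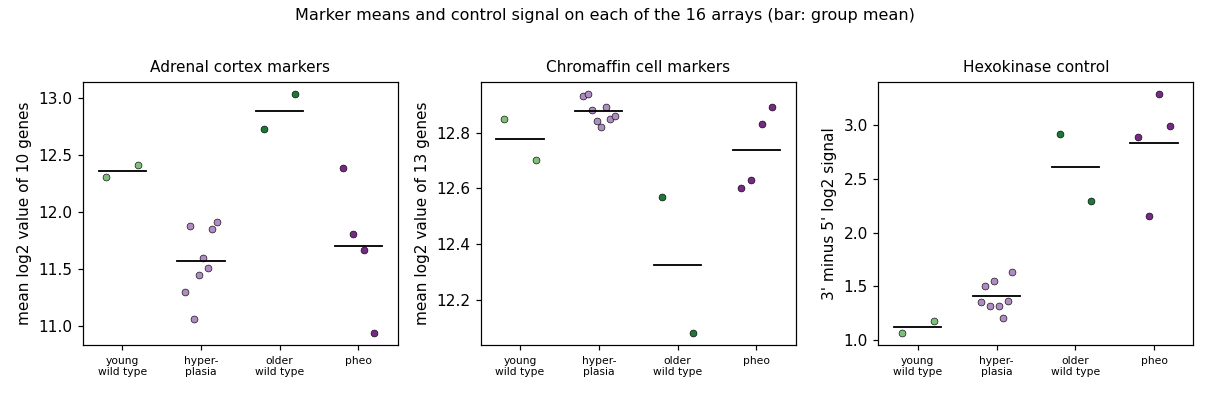
Mean log2 value of the adrenal cortex and chromaffin markers, and 3′ minus 5′ log2 signal of the hexokinase control, on each of the 16 arrays (points; bars are group means; pheo is pheochromocytoma). Cortex markers were lower in both lesions than in their wild-type pools without overlap, and the control gap was larger on every older array than on any young array.

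Genes that move together are often shown with their promoters, so those of members that passed the test in both lesions follow, as the DNA in which any shared motif would be sought. RefSeq (assembly GRCr8) gave a window of 250 bases before and 50 bases after the start for 44 of the 54 members, and for Vamp2, Rab3d, Stxbp5 and Rims3 among the 5; Syt17 is named only. Each is written 5′ to 3′ on the gene's strand, with the GC box GGGCGG or its reverse complement in capitals. They lie on chr10:54292539-54292838 (plus strand), chr8:28725218-28725517 (minus), chr1:6155479-6155778 (minus) and chr5:139714070-139714369 (plus) of GRCr8.
Vamp2 promoter: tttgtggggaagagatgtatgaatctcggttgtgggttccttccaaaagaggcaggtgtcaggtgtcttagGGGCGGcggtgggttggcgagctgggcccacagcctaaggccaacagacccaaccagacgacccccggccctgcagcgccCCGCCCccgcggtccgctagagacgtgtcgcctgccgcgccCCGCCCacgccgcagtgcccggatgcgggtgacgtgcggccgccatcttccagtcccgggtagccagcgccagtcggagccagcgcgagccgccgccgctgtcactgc
Rab3d promoter: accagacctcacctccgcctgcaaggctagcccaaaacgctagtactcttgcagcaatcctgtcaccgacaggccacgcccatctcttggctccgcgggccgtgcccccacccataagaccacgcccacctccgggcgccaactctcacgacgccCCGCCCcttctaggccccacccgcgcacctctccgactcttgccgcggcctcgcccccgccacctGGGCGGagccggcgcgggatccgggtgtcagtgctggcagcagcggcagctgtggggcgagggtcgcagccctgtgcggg
Stxbp5 promoter: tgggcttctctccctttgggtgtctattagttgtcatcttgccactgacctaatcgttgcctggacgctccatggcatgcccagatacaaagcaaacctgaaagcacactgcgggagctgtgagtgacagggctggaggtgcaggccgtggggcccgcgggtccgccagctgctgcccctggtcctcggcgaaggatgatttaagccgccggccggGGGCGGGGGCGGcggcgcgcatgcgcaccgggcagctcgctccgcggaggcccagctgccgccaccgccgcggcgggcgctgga
Rims3 promoter: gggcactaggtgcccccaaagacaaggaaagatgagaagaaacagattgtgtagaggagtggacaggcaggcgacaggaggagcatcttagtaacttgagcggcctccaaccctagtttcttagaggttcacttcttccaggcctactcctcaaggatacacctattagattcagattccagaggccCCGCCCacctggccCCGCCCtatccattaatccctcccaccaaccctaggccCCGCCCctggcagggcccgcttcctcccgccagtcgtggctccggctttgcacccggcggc
Vamp2 and Rims3 had 3 GC boxes each and Rab3d and Stxbp5 had 2 each, so genes that rose and the gene that fell both had them. The GC box was found on either strand in 32 of the 44 member windows (72.7%), against 36% of all 27457 RefSeq promoters of this length and 58.6% of the promoters of genes on the array. The cAMP response element TGACGTCA stood in 1 of 44 (2.27%), that of Vamp1, against 2.93% of array genes. CAGCACC, the left part of the RE1 element bound by the neuronal repressor REST, stood in 7 of 44 (15.9%), those of Rab3c, Rph3a, Stx18, Syt15, Syt4, Syt8 and Unc13a, against 8.48% of array genes. None of the 3 motifs contains another, all were sought on both strands, and a match describes the sequence only.

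The first comparison asked which exocytosis genes differ in hyperplasia, the early lesion, from the medulla of wild-type rats of the same age. The vesicle SNARE Vamp2, the vesicle GTPase Rab3d, the syntaxin-binding protein Stxbp5 and Syt17 rose by 0.47 to 0.63 on the log2 scale, and the active-zone protein Rims3 fell by 0.81. The other 49 members did not pass an adjusted p of 0.05 in limma, with Benjamini-Hochberg adjustment over all 31042 probe sets. The 5 members are 9.26% of 54, against 8.89% of all genes called in either direction; 4 rose (7.41%, against 5.42% of all genes) and 1 fell (1.85%, against 3.47%). The share called was thus near the background. The median difference over the 54 members was 0.027, against -0.011 over all genes.

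The second comparison asked the same of the tumour: pheochromocytoma against older wild type. Here the ages were not equal: the pooled animals were of 10, 12 and 17 months and the tumour-bearing rats of 8 or 9 months. Whether this age gap bears on the differences was not tested. The same 5 genes passed, in the same directions, and 8 more with them. Snap25, Stx1a, Stx6, Syt4, Syt12 and Cplx2 also rose, while Syt8 and Stxbp2 fell. Cplx2 had the largest difference, 1.40, a 2.64-fold higher signal. The 13 members are 24.1% of 54, against 16.8% of all genes; 10 rose (18.5%, against 9.66%) and 3 fell (5.56%, against 7.1%). Centring each array on its median changed the split over all 31042 probe sets from 2579 higher and 1846 lower to 1938 and 2416; among members it went from 10 and 3 to 10 and 4. The median difference over the members was -0.022, against 0.005 over all genes, with 26 members above 0 and 28 below. Adding the mean of the cortex markers to the model left no member past the test in pheochromocytoma and Rims3 in hyperplasia, while the median standard errors grew 1.43 and 1.25 times. Over all 31042 probe sets the calls fell from 4425 to 81 and from 2296 to 363. They fell too in pheochromocytoma without older wild type 2, and in hyperplasia without young wild type 1 or without young wild type 2. Without older wild type 1 they rose in both. Without older wild type 2 the tumour count was 2 rather than 13, Stx6 and Rims3. Leaving out young wild type 1 ended the hyperplasia calls of Vamp2, Syt17 and Rab3d, and leaving out young wild type 2 those of Vamp2, Syt17 and Stxbp5, so that 2 of 5 passed each time.

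**Figure D2:**
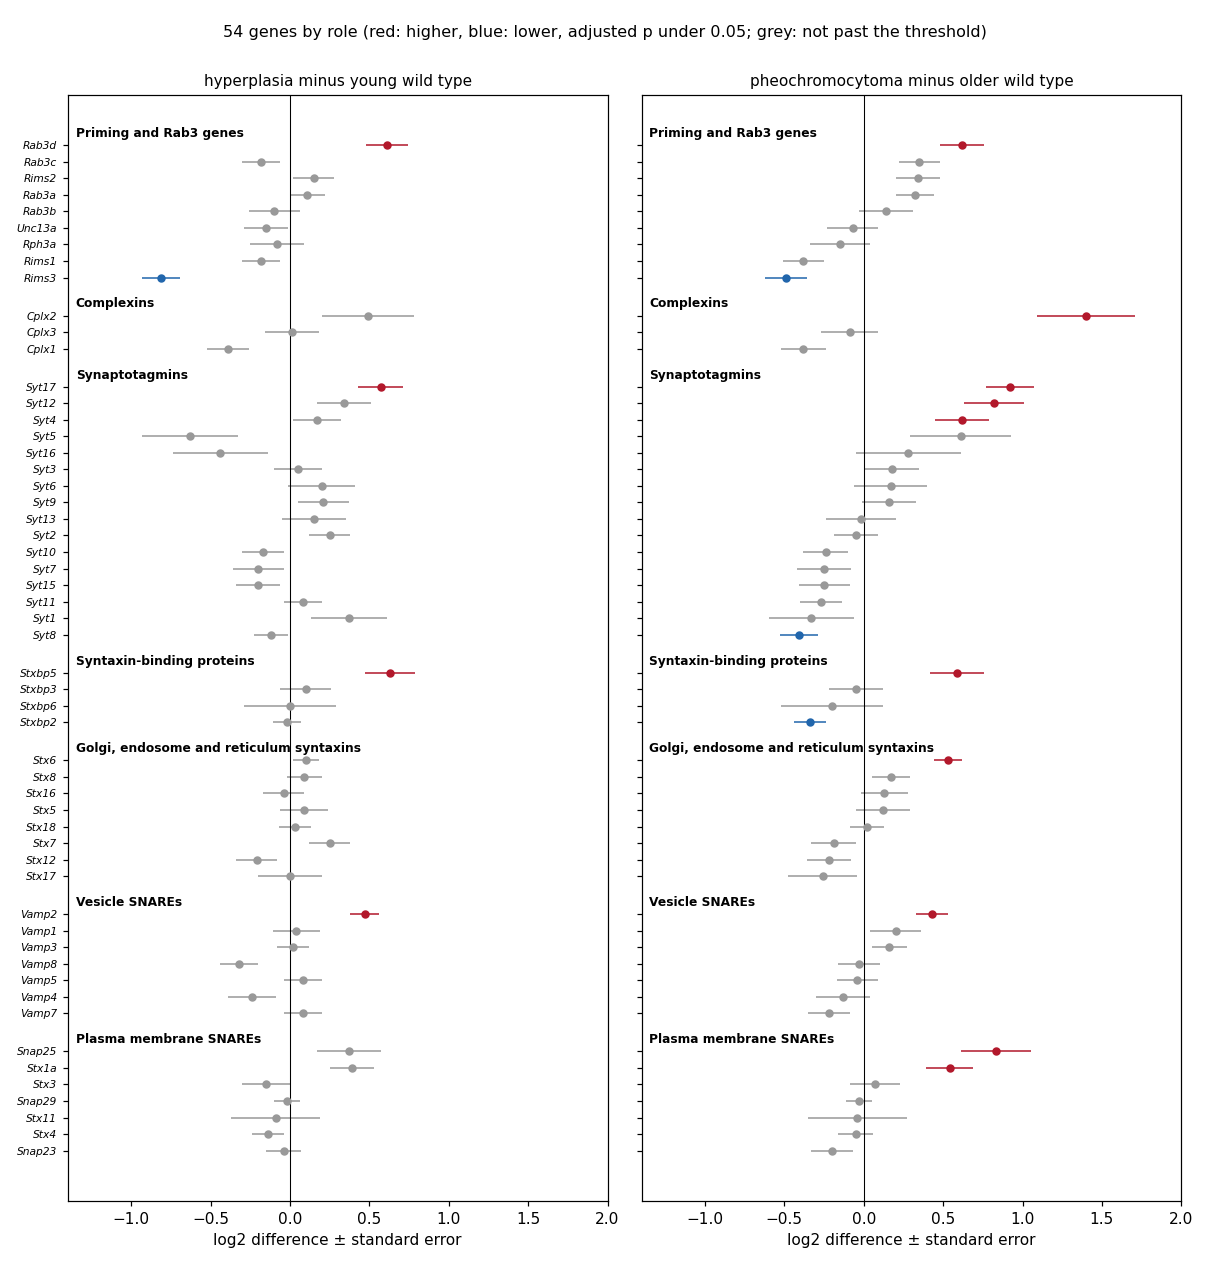
Log2 difference ± standard error of each of the 54 genes, by role, in hyperplasia minus young wild type (left) and pheochromocytoma minus older wild type (right), from limma. Coloured points passed an adjusted p of 0.05; 5 did so on the left and 13 on the right, and Rims3 is blue (lower) in both, joined by Syt8 and Stxbp2 on the right.

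Plasma membrane SNAREs form the target side of the fusion complex. None of the 7 passed in hyperplasia, where 8.89% of all genes did, and 2 rose in pheochromocytoma, where 9.66% of all genes did. Snap25, which gives a pair of helices to the complex, read 11.79 in both young pools, and 11.73, 12.24 and 12.53 as the lowest, median and highest of the 8 hyperplasia arrays. It read 11.88 and 11.44 in the older pools and 12.24, 12.54, 12.75 and 12.42 in the 4 tumours. Every tumour lay above both older pools, whereas 1 hyperplasia array lay below the young pools. The difference was 0.37 ± 0.20 (SE) in hyperplasia (limma adjusted p = 0.279) and 0.83 ± 0.22 in pheochromocytoma (adjusted p = 0.0185), a 1.78-fold higher signal. With cortex markers in the model the tumour difference was 0.33 (limma adjusted p = 0.643).

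Stx1a, the neuronal syntaxin of the plasma membrane, read 7.53 and 7.15 in the young pools and 7.58, 7.73 and 7.94 (lowest, median, highest) in hyperplasia. The older pools stood at 7.00 and 6.62 and the tumours at 7.20, 7.41, 7.62 and 7.16. Neither lesion overlapped its own controls, but the older arrays lay lower as a whole. The difference of 0.39 ± 0.14 in hyperplasia did not pass in limma (adjusted p = 0.102) and that of 0.54 ± 0.15 in pheochromocytoma did (adjusted p = 0.0282). Its second probe set gave 0.12 ± 0.16 in pheochromocytoma (limma adjusted p = 0.641). Without older wild type 2 the difference was 0.35, and it did not pass there or without pheochromocytoma 2 or 3. Snap23, the widely expressed relative of Snap25, differed by -0.04 ± 0.11 and -0.20 ± 0.13. Snap29, Stx3, Stx4 and Stx11 lay between -0.15 and 0.07 in both comparisons.

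Among the 7 vesicle SNAREs, Vamp2 alone passed, and it did so in both lesions, where 8.89% and 16.8% of all genes passed. Vamp2 is the synaptobrevin of synaptic and chromaffin vesicles. It read 9.41 and 9.39 in the young pools, against 9.67, 9.87 and 10.03 (lowest, median, highest) in hyperplasia. In the older pools it read 9.55 and 9.44, and in the tumours 9.87, 9.95, 9.96 and 9.92. No lesion array reached down to its controls, and the 4 tumours lay close together. The difference was 0.47 ± 0.09 in hyperplasia (limma adjusted p = 0.00525) and 0.43 ± 0.10 in pheochromocytoma (adjusted p = 0.00914), or 1.38-fold and 1.35-fold. A second, dim probe set with a mean of 4.89 gave -0.17 ± 0.12 and -0.18 ± 0.14, neither past the test. Averaging both probe sets ended the call.

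Vamp8, a SNARE of endosomes and of secretory granules in other glands, read 9.93 and 10.11 in the young pools and 9.44 to 9.82 in hyperplasia, without overlap, a difference of -0.32 ± 0.12 that did not pass (limma adjusted p = 0.103). Vamp1, the close relative of Vamp2, differed by 0.04 ± 0.15 and 0.20 ± 0.16. Vamp3, Vamp4, Vamp5 and Vamp7 lay between -0.24 and 0.16 in both comparisons.

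The 8 syntaxins of the Golgi, endosomes and endoplasmic reticulum serve transport upstream of release. Of these, 1 passed in pheochromocytoma, where 16.8% of all genes did, and none in hyperplasia. Stx6, a SNARE of the trans-Golgi network from which granules bud, read 9.31 and 9.23 in young wild type and 9.26, 9.37 and 9.51 (lowest, median, highest) in hyperplasia. It read 8.93 and 9.01 in older wild type and 9.48, 9.48, 9.51 and 9.56 in the tumours. The hyperplasia arrays overlapped the young pools, and the tumours stood well clear of the older pools. The difference was 0.10 ± 0.08 in hyperplasia (limma adjusted p = 0.53) and 0.53 ± 0.09 in pheochromocytoma (adjusted p = 0.00191). The second value passed without any 1 of the 16 arrays. Its second probe set gave 0.64 ± 0.23 (limma adjusted p = 0.0727). The other 7, Stx5, Stx7, Stx8, Stx12, Stx16, Stx17 and Stx18, lay between -0.26 and 0.25.

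**Figure D3:**
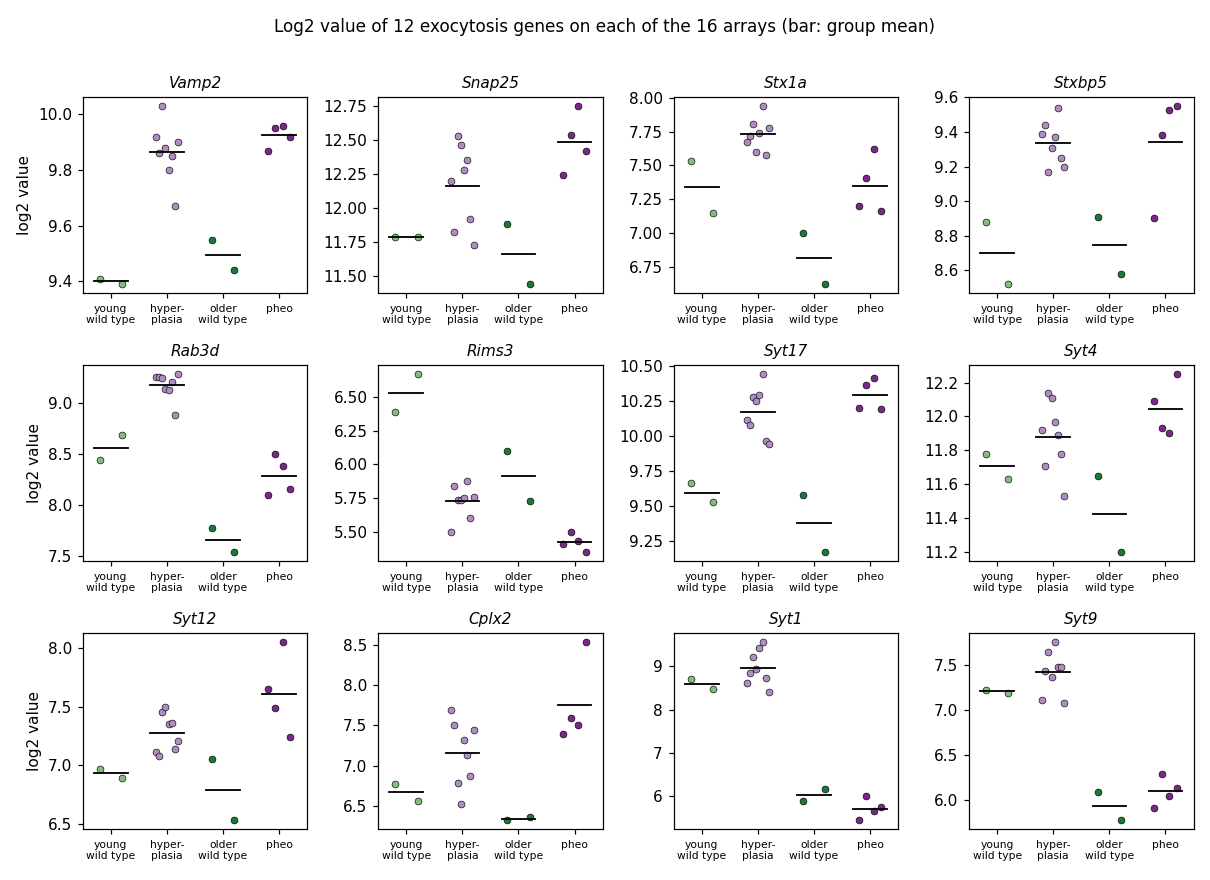
Log2 value of 12 members on each of the 16 arrays (points; bars are group means; pheo is pheochromocytoma; each panel has its own axis, which does not start at 0). Vamp2, Rab3d and Syt17 stood above their wild-type pools in both lesions and Rims3 below, while Syt1 and Syt9 separated the young from the older arrays.

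Syntaxin-binding proteins regulate the assembly of syntaxins into complexes. Stxbp5 (tomosyn), which binds Stx1a and Snap25 in place of the vesicle SNARE and is known as an inhibitor of release, read 8.88 and 8.52 in young wild type. In hyperplasia it read 9.17, 9.34 and 9.54 (lowest, median, highest). The older pools stood at 8.91 and 8.58 and the tumours at 8.90, 9.38, 9.53 and 9.55. All hyperplasia arrays lay above the young pools, whereas pheochromocytoma 1 lay just under older wild type 1. The difference was 0.63 ± 0.16 (limma adjusted p = 0.0216) and 0.59 ± 0.17 (adjusted p = 0.0303). The second probe set gave 0.60 ± 0.18 (limma adjusted p = 0.05, not past the threshold) and 0.89 ± 0.19 (adjusted p = 0.00704), and the third 0.27 ± 0.21 and 0.29 ± 0.23. With the cortex covariate the values were 0.40 and 0.25. In pheochromocytoma the call was lost in 4 of the 16 fits that left out 1 array, those without older wild type 2 or pheochromocytoma 2, 3 or 4, where the difference ranged from 0.43 to 0.76.

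Stxbp2, the Munc18 relative of epithelia and blood cells, read 8.00 and 8.21 in older wild type and 7.67, 7.76, 7.89 and 7.73 in the tumours. All 4 tumours were lower, by -0.34 ± 0.10 (limma adjusted p = 0.0274), and in hyperplasia the difference was -0.02 ± 0.09. The fall also failed the test in 4 of the 16 fits without 1 array, those without older wild type 2 or pheochromocytoma 1, 2 or 4, with values from -0.44 to -0.24. Stxbp3 and Stxbp6 did not pass in either lesion.

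The 16 synaptotagmins are the largest family measured. In hyperplasia 1 rose and in pheochromocytoma 3, where 5.42% and 9.66% of all genes rose. Syt17, which lacks the transmembrane segment of most synaptotagmins, read 9.66 and 9.53 in the young pools and 9.94, 10.18 and 10.44 (lowest, median, highest) in hyperplasia. Its older pools stood at 9.58 and 9.17 and the tumours at 10.20, 10.36, 10.41 and 10.19. Neither lesion overlapped its controls. The difference was 0.57 ± 0.14 (limma adjusted p = 0.0174) and 0.92 ± 0.15 (adjusted p = 0.00128), or 1.49-fold and 1.89-fold. A second probe set gave 0.75 ± 0.13 (limma adjusted p = 0.00335) and 0.80 ± 0.15 (adjusted p = 0.00267), and so passed in both lesions too.

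Syt4, a dense-core vesicle synaptotagmin that binds calcium weakly, and Syt12, which lacks the calcium-binding residues, rose in the tumour. Syt4 read 11.65 and 11.20 in the older pools and 12.09, 11.93, 11.90 and 12.25 in the tumours, a difference of 0.62 ± 0.17 (limma adjusted p = 0.0226). In hyperplasia its 8 arrays, from 11.53 to 12.14, straddled the young pools at 11.78 and 11.63, with a difference of 0.17 ± 0.15. With the cortex covariate the tumour value was 0.23 (limma adjusted p = 0.679), without older wild type 2 it was 0.39, and it did not pass there or without pheochromocytoma 4. Syt12 read 7.05 and 6.53 in the older pools and 7.65, 7.49, 8.05 and 7.24 in the tumours, a difference of 0.82 ± 0.19 (limma adjusted p = 0.0106). All tumours lay above both pools. In hyperplasia its arrays, from 7.08 to 7.50, also lay above the young pools at 6.97 and 6.89, but that difference of 0.34 ± 0.17 did not pass (limma adjusted p = 0.262). The tumour value stayed at 0.82 with the cortex covariate, where it no longer passed (limma adjusted p = 0.235).

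Syt8 fell in the tumour: it read 7.26 and 7.48 in older wild type and 6.98, 6.92, 7.06 and 6.89 in pheochromocytoma, a difference of -0.41 ± 0.12 (limma adjusted p = 0.0309). The tumours lay below both pools, yet above the median hyperplasia array at 6.54. The older pools likewise lay higher than the young ones at 6.83 and 6.55. The call was lost without older wild type 2 or pheochromocytoma 2 or 4.

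Syt1 and Syt7, the main calcium sensors of chromaffin cell release, did not pass in either lesion. Syt1 differed by 0.37 ± 0.24 in hyperplasia and -0.33 ± 0.27 in pheochromocytoma, and Syt7 by -0.20 ± 0.16 and -0.25 ± 0.17. Syt5 was uneven among tumours, at 7.20, 6.45, 6.48 and 8.20 against 6.48 and 6.47 in the older pools, so that 2 tumours stood at the level of the controls and pheochromocytoma 4 far above. Its difference of 0.61 ± 0.32 did not pass (limma adjusted p = 0.227). In hyperplasia Syt5 read 6.61 to 6.89, below the young pools at 7.27 and 7.49 without overlap, and that difference of -0.63 ± 0.30 did not pass either (limma adjusted p = 0.223).

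Of the 3 complexins, which clamp and then assist the assembled SNARE complex, Cplx2 rose in the tumour. It read 6.33 and 6.37 in older wild type and 7.39, 7.59, 7.50 and 8.53 in the tumours, so every tumour stood clear of both pools and pheochromocytoma 4 was the highest. The difference was 1.40 ± 0.31 (limma adjusted p = 0.00835). In hyperplasia the values ran from 6.53 through a median of 7.22 to 7.69 and overlapped the young pools at 6.78 and 6.57, with a difference of 0.49 ± 0.29 (limma adjusted p = 0.34). Cplx1 had the opposite sign in both lesions, -0.39 ± 0.13 (limma adjusted p = 0.0893) and -0.38 ± 0.14 (adjusted p = 0.0871). Hyperplasia 7, at 5.90, stood above both young pools, 5.76 and 5.86, and the other 7 hyperplasia arrays lay at 5.28 to 5.53. Without it the hyperplasia difference of Cplx1 was -0.45 and passed (limma adjusted p = 0.0066), as did that in pheochromocytoma (-0.38, adjusted p = 0.0177), since all groups share the estimate of the spread. A second probe set of Cplx1, with a mean of 4.92, gave -0.24 ± 0.12 (limma adjusted p = 0.252) and -0.22 ± 0.13 (adjusted p = 0.279) with all 16 arrays. Cplx3 lay below the first quartile of the array on all 16 arrays.

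The 9 Rab3 and priming genes split in direction. Rab3d, the Rab3 of endocrine and exocrine granules, read 8.44 and 8.68 in young wild type and 8.88, 9.22 and 9.28 (lowest, median, highest) in hyperplasia. It read 7.78 and 7.54 in older wild type and 8.10, 8.50, 8.38 and 8.16 in the tumours. Each lesion stood above its own controls, but the tumours lay below every hyperplasia array. The differences were 0.61 ± 0.13 (limma adjusted p = 0.00802) and 0.62 ± 0.14 (adjusted p = 0.00773), 1.53-fold and 1.54-fold. Rab3a, the main Rab3 of synaptic and chromaffin vesicles, differed by 0.11 ± 0.11 and 0.32 ± 0.12 (limma adjusted p = 0.0847). Rab3c and Rims2 had tumour differences of 0.35 ± 0.13 and 0.34 ± 0.14, neither past the test.

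Rims3, a short Rims protein without the Rab3-binding domain, read 6.39 and 6.67 in young wild type and 5.50, 5.75 and 5.88 (lowest, median, highest) in hyperplasia. It read 6.10 and 5.73 in older wild type and 5.41, 5.50, 5.43 and 5.35 in the tumours. All lesion arrays were lower than their controls. The difference was -0.81 ± 0.12 in hyperplasia (limma adjusted p = 0.000861), a 1.75-fold lower signal, and -0.49 ± 0.13 in pheochromocytoma (adjusted p = 0.0182). The hyperplasia value passed in all 16 fits without 1 array, where it ran from -0.95 to -0.67, and in all 13 other alternatives. The tumour value was -0.31 and did not pass without older wild type 1. Unc13a and Rph3a, which prime vesicles and bind Rab3, lay between -0.15 and -0.07 in both lesions, and Rims1 was below the first quartile on all 16 arrays.

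Across both comparisons 38 of the 54 members had the same sign (70.4%), against 71.4% of all genes. The 5 called in hyperplasia are 100% of its calls and 38.5% of the 13 in pheochromocytoma, where over all genes the calls shared in the same direction are 55.8% and 29.6%; with 5 calls this overlap is a description. Both comparisons enter 1 fit but share no array. Whether the effects differed was tested as their difference: no member passed in limma, against 0.0141% of all genes. An unadjusted limma p under 0.05 was found for 6 of the 54 members and for 1531 of all 14217 genes, so the share of members was near the background. The largest of these differences was that of Syt5, 1.23 ± 0.44 (limma adjusted p = 0.321). Those of Cplx2 and Stx6 were 0.92 ± 0.43 (adjusted p = 0.444) and 0.43 ± 0.13 (adjusted p = 0.226). Rab3c, at 0.52 ± 0.17 (limma adjusted p = 0.29), was 0.77 and passed without older wild type 1 (adjusted p = 0.0304). In that fit the calls over all 31042 probe sets went from 8 to 649, and the spread of the 1 pool left is borrowed from the other groups. Members past the threshold in the tumour and not in hyperplasia are therefore not shown to differ between the lesions.

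**Figure D4:**
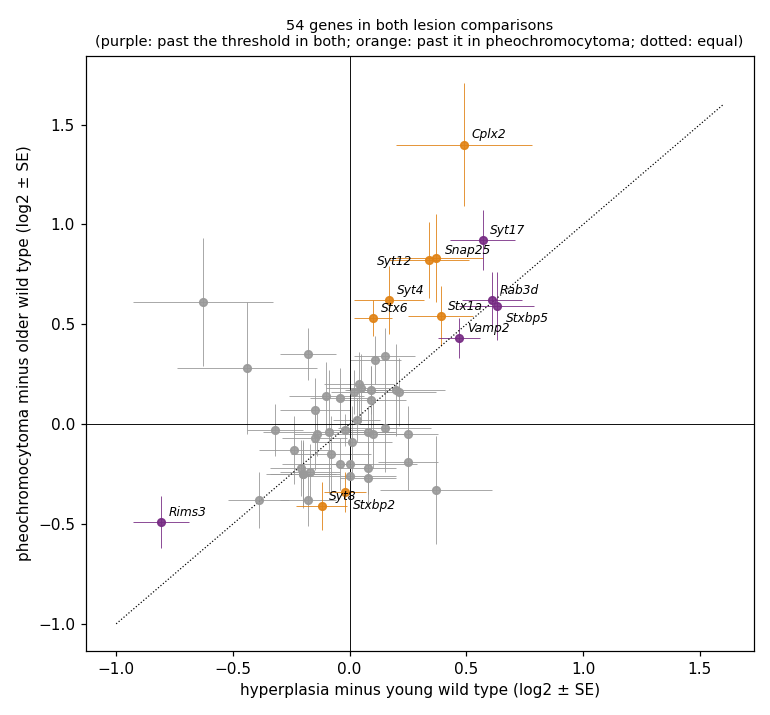
Log2 difference ± standard error of the 54 members in pheochromocytoma minus older wild type (vertical) against hyperplasia minus young wild type (horizontal). Purple members passed in both comparisons, orange ones in pheochromocytoma, and the dotted line marks equal differences; Cplx2 lies farthest above it among coloured points, with 1.40 against 0.49.

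Marker levels moved with these groups, and in bulk tissue fewer cells of a type and less RNA per cell cannot be told apart. The mean of 13 chromaffin markers was 12.698 and 12.849 in the young pools and 12.820 to 12.938 in hyperplasia, with overlap. It was 12.076 and 12.566 in the older pools and 12.601 to 12.889 in the tumours, without overlap. Of the 13 markers 1 rose in hyperplasia and 5 in pheochromocytoma. Older wild type 2, without which most tumour calls were lost, had the lowest chromaffin mean and the highest cortex mean of the 16 arrays. It was also the oldest pool, of 12 and 17 months, and was labelled male. Which of these traits bears on the lost calls was not tested. Macrophage and leukocyte markers lay higher in hyperplasia without overlap, with a mean difference of 0.178, and red blood cell markers lay lower there without overlap (-0.520). Adipocyte, fibroblast and Schwann cell markers did not overlap in pheochromocytoma, with mean differences of -0.640, 0.470 and 0.191. In exact permutation tests no marker list passed after adjustment over 18 tests, where the lowest adjusted p was 0.171. With 15 splits in pheochromocytoma the smallest possible p of that test was 0.067. The part of these shifts in the differences of the exocytosis genes was tested for cortex markers alone, by the covariate above. For the 13 tumour calls that covariate made 3 differences smaller by more than 1.5 times, those of Snap25, Stxbp5 and Syt4, made 8 smaller by less, and left 2 as large or larger.

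A list of 74 other exocytosis genes, such as the fusion ATPase and its adaptors, tethers, active-zone scaffolds and vesicle membrane proteins, had 66 measured members. In hyperplasia 1 rose and 3 fell, and in pheochromocytoma 8 rose and 2 fell; these are 6.06% and 15.2% of the 66, against 8.89% and 16.8% of all genes, so neither share was above the background. Their median differences were 0.059 and 0.152, and none passed in the difference between effects. Myrip, which links Rab27 granules to myosin, had the largest fall in hyperplasia, from 10.22 and 10.55 in the young pools to 8.49, 9.06 and 9.42 (lowest, median, highest), or -1.34 ± 0.25 (limma adjusted p = 0.00489). Rab3ip, an exchange factor first found as a Rab3a partner, fell from 8.55 and 8.73 to 7.50, 7.70 and 7.82, or -0.98 ± 0.13 (adjusted p = 0.000395). In pheochromocytoma these genes differed by -0.41 ± 0.28 and -0.10 ± 0.14. Sv2c, a vesicle glycoprotein, fell in hyperplasia by -0.82 ± 0.17, and Napb, an adaptor of the fusion ATPase, rose by 0.51 ± 0.12 (limma adjusted p = 0.00921 and 0.0156). For Sv2c, 6 of the 8 hyperplasia arrays lay below the first quartile of the array. Rab3ip passed without any 1 of the 16 arrays, whereas Myrip was lost without young wild type 1, Napb without young wild type 2 and Sv2c without either.

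In the tumour Synpr, a vesicle protein of the synaptophysin family, had the largest rise of the list. It stood at 4.74 and 4.75 in the older pools, below the first quartile of the array, and between 5.46 and 7.84 in the tumours. The difference was 2.19 ± 0.53 (limma adjusted p = 0.0127). Rimbp2, which ties Rims proteins to calcium channels, rose by 1.09 ± 0.18 (adjusted p = 0.00161), with 9.21 and 10.09 in the older pools and 10.62 to 10.85 in the tumours. Without older wild type 2 the value of Rimbp2 was 0.65 and did not pass, and none of Synpr, Ppfia2, Cadps, Sypl1 and Syngr2 passed without that pool. Ppfia2, a liprin scaffold, rose by 1.00 ± 0.27 and Cadps, the priming factor CAPS of dense-core vesicles, by 0.72 ± 0.17 (limma adjusted p = 0.0226 and 0.0122). Both older pools of Ppfia2, at 4.32 and 4.35, also lay below the first quartile of the array. With the cortex covariate the value of Cadps was 0.14. Bsn, Syp, Madd and Ppfia1 also rose, and Sypl1 (-0.54 ± 0.14) and Syngr2 (-0.47 ± 0.13), relatives of synaptophysin and synaptogyrin outside neurons, fell.

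Hyperplasia arrays differed among themselves along Xist. The 4 arrays with Xist signal and the 4 without did not overlap for 9 of the 54 members (16.7%), against 17.6% of all genes, so the share was near the background. Snap25 read 12.28 to 12.53 with Xist and 11.73 to 12.20 without, Syt1 8.94 to 9.56 and 8.40 to 8.84, Syt17 10.25 to 10.44 and 9.94 to 10.11. Syt12, Stx8 and Vamp7 were also higher with Xist, and Rab3b, Stx5 and Syt15 lower. The cortex marker mean of these arrays was 11.06 to 11.60 with Xist and 11.30 to 11.91 without. Leaving out the 4 hyperplasia arrays whose Xist went against the label reduced the calls in hyperplasia from 5 to 1, Rims3, and those in pheochromocytoma from 13 to 8. Over all 31042 probe sets the calls went from 2296 to 689 and from 4425 to 3362.

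Comparing the tumour with hyperplasia directly crosses age, since the tumours were taken at 8 or 9 months and the hyperplasia at 2 months. Here 25 members passed (46.3%, against 35.8% of all genes), 7 higher (13%, against 15.7%) and 18 lower (33.3%, against 20.2%). Quantile normalization gave 12 higher and 17 lower. Between the wild-type groups, older against young, 15 members passed (27.8%, against 21.5%), 5 higher (9.26%, against 8.58%) and 10 lower (18.5%, against 12.9%). Syt1, the fast calcium sensor, changed most: 8.71 and 8.47 in the young pools and 8.40 to 9.56 in hyperplasia, but 5.90 and 6.18 in the older pools and 5.45, 6.01, 5.65 and 5.76 in the tumours. Young and older arrays were far apart whatever their genotype. The difference was -3.25 ± 0.19 between lesions (limma adjusted p = 2.77e-09), a 9.51-fold lower signal, and -2.55 ± 0.31 between wild types (adjusted p = 2.98e-05).

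Syt9, another calcium sensor, fell by -1.33 ± 0.12 between lesions and -1.28 ± 0.20 between wild types. Its values were 7.08 to 7.76 on the young arrays and 5.77 to 6.29 on the older ones. Rab3d fell by -0.89 ± 0.10 and -0.90 ± 0.16, Rims2 by -0.69 ± 0.10 and -0.87 ± 0.16, and Syt7 by -0.76 ± 0.12 and -0.71 ± 0.20. Syt7 lay below the first quartile of the array on all 6 older arrays, and a second probe set of it differed by 0.07 ± 0.11 and 0.19 ± 0.17. Rab3c fell by -0.91 ± 0.15 between wild types, and Syt13, a synaptotagmin without calcium binding, by -0.76 ± 0.15 between lesions. All these passed in limma, except that Syt13 did so between lesions and not between wild types (-0.60 ± 0.25). Both comparisons across ages use the same arrays as the comparisons of lesion against wild type above. Without older wild type 2 or either young pool the wild-type count was 9 rather than 15.

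The control transcript moved with the same split. With its 3′ minus 5′ gap as a covariate, 1 of the 25 lesion calls passed, Syt1 at -2.39 (limma adjusted p = 0.00542). Of the 15 wild-type calls 1 passed, Rab3c at -1.20 (limma adjusted p = 0.0204). The counts in the comparisons of lesion against wild type stayed at 5 and 13, with 12 of the 13 the same. Over all 31042 probe sets the calls between lesions fell from 12631 to 1013 and those between wild types from 7366 to 987. The standard errors of the members grew by a median of 2.55 and 1.8 times, and many of their differences kept their size. Of the 25, 11 were as large or larger, 5 smaller by up to 1.5 times and 8 smaller by more, and Stx12 went from -0.26 to 0.12; of the 15, 8, 4 and 3 fell in those classes. Rab3d was -0.86 and -0.87, Rims2 -0.87 and -1.07, Syt7 -0.77 and -0.72, and Syt9 -1.07 and -1.01, none past the test. Syt1 was smaller than in the main fit in both comparisons, and between wild types it was -1.65 and did not pass (limma adjusted p = 0.0752). Probe sets of the same gene often disagreed on this axis. Of the 25 further probe sets of members, 10 fell between young and older wild type, against 13.3% of all 31042 probe sets, and 9 of the 10 did so where the brightest probe set of the gene did not. In the other direction 1 rose, a probe set of Vamp1 at 1.04 ± 0.20 (limma adjusted p = 0.00156) where the brightest stood at -0.06 ± 0.19. Syt4 differed by -0.28 ± 0.19 at its brightest probe set and by -3.92 ± 0.28 at the other (limma adjusted p = 1.81e-07), which averaged 11.02 in the young pools and 7.09 in the older ones. For Stx6 the pair of values was -0.30 ± 0.11 and -2.39 ± 0.27, for Rab3a -0.35 ± 0.14 and -1.13 ± 0.18, and for Stx1a -0.53 ± 0.18 and -1.23 ± 0.18. In pheochromocytoma against older wild type the probe sets of Syt4 gave 0.62 and 0.60, and those of Stx6 gave 0.53 and 0.64. Syt1 and Syt9 have a single probe set each, so no further probe set measured their fall. Age and the quality of the RNA or labelling cannot be told apart between the young and older arrays.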

How the data were processed

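The deposited values are log2 signals, 1 per probe set and array. Per the submitters' processing notes the authors used RMA, which corrects background, normalizes quantiles and summarises probes; its version, and which arrays were normalized together, are not stated in the sources used here. Per the labels' protocols, Trizol and a silica column with DNase gave the RNA, which was then amplified and biotin-labelled. The number of arrays limits the precision, and extraction or scan batches are unknown here.

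The 57 control probe sets of 31099 were left out, and 31042 were tested. Of these, 20826 had a single symbol, 436 several and 9780 none in the platform annotation; 20764 matched a RefSeq gene table (GRCr8) by Entrez identifier and 0 symbols changed. A linear model of all 16 arrays was fitted by limma 3.58.1 under R 4.3.3, moderated by eBayes, with 4 group levels and no covariate, giving 12 residual degrees of freedom and a prior of 3.984. Tests were two-sided, and an adjusted p under 0.05 over all 31042 probe sets was past the threshold. Fold values are 2 raised to the log2 difference and are compressed where signal nears the floor. List means were compared by exact permutation of arrays, adjusted over 18 tests.

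The member rule reads gene symbols only, but these gene families, and the lists, were chosen for study with earlier results of these data known. Named with full values are a list of core release genes, every member past the threshold in a lesion comparison, up to 5 passing members with the largest difference in each other comparison, and up to 4 passing genes per direction among the other exocytosis genes. Members named beyond this, such as Syt5 and Vamp8, and Bsn, Syp, Madd and Ppfia1 were named after their values were seen. Of the members, 42 lay above the first quartile (4.71 to 4.93) on every array and 4 below it on every array (Cplx3, Rims1, Syt10 and Syt16). The alternatives were sex terms, subsets of arrays, variance models, scaling, a filter on the dimmest 30%, array weights, a replicate block, the cortex covariate, the mean of all probe sets and each array left out; the hexokinase covariate was chosen after seeing the data. The fitting code was tested on simulated data.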

Additional observations from a re-analysis of the deposited data

Results flagged for a closer look

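Each of 108 groups, the hyperplasia and pheochromocytoma arrays of every member, was searched for a sample whose gap to its nearest neighbour is a large part of the group's range. 5 samples stood apart, where chance gives about 1 in 20 groups, so over 108 groups this count is near what chance gives. Hyperplasia 7 read 5.90 for Cplx1 against 5.28 to 5.53 on the other 7 arrays, and 8.88 for Rab3d against 9.12 to 9.28. Pheochromocytoma 4, the male tumour, read 5.95 for Stxbp6 against 5.54 to 5.58. Hyperplasia 1 read 6.11 for Syt11 against 6.34 to 6.52, and hyperplasia 8 read 7.73 for Vamp5 against 7.41 to 7.55. Hyperplasia 7 decides the calls of Cplx1 at its brightest probe set, which passed in both lesions without it. Its second probe set passed in neither lesion with all 16 arrays.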

How the results depend on the processing

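No named difference changed direction under an alternative where the main or the alternative value passed the threshold. Changes of sign were not counted where neither value passed. Among the other called members, Stx12 went from -0.26 to 0.12 between lesions with the hexokinase covariate. In hyperplasia the count of 5 members became 1 without the arrays whose Xist went against the label, 1 with a replicate block, 1 with the cortex covariate and 3 with the mean of all probe sets; without 1 array it ran from 2 to 6. In pheochromocytoma the count of 13 became 5 with only the arrays compared, 8 without the Xist-mismatched arrays, 3 with the replicate block and 0 with the cortex covariate; without 1 array it ran from 2 to 15. The count of 0 for the difference between effects ran from 0 to 1 without 1 array. Between lesions the count of 25 became 12 with the block and 1 with the hexokinase covariate, and ran from 20 to 25 without 1 array. Between wild types the count of 15 became 6 with only the arrays compared, 9 with the block and 1 with the hexokinase covariate, and ran from 9 to 16. With that covariate 11 of the 25 and 8 of the 15 differences were as large or larger, while standard errors grew by a median of 2.55 and 1.8 times. Over all 31042 probe sets it took the calls between lesions from 12631 to 1013 and those between wild types from 7366 to 987. Over all 31042 probe sets the 2296 calls in hyperplasia became 689 without the Xist-mismatched arrays, 556 with the block and 363 with the cortex covariate. The 4425 calls in pheochromocytoma became 3362, 1593 and 81 in these fits, and 1915 with only the arrays compared. Fewer arrays leave fewer degrees of freedom (5 with the block), and the covariates raise standard errors. Otherwise the cause was not tested. Replicate numbers did not pair the arrays: deviations of same-numbered arrays correlated at -0.076 and 0.053 in the young and -0.065 and 0.053 in the older groups. Over 66 named differences, 133 alternative values fell short of the threshold that the main value passed and 8 newly passed, against 1763 on the same side. The 1763 include core release genes that passed in neither fit, so they do not measure how well the calls held. Quantile normalization and median centring gave 5 and 5 calls in hyperplasia and 12 and 14 in pheochromocytoma. The 2 pools per wild-type group limit what could be detected, and 4 members lay below the first quartile of every array.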
